A study of Rattus norvegicus with 42 samples.

Results

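Blood of 6 rats labelled anesthesia was compared with blood of 6 rats labelled naive, 12 of the 42 rats of a stroke and tissue plasminogen activator (tPA) study with 7 groups of 6. The 12 arrays were chosen by their sample labels alone. All 12 rats were male Sprague-Dawley animals, an outbred stock, a little over 2 months old on average, and neither group received tPA or middle cerebral artery occlusion (MCAO). Operated rats of the study were held under isoflurane in oxygen, but the agent, its length and body temperature are not given separately for the anesthesia group in the sources used here, and no group had surgery without occlusion. Blood was taken at 24 hours by cardiac puncture into tubes that stabilise RNA, under isoflurane that is described for the animals without an exception for naive rats, so the naive group may not have been free of the agent at the draw. RNA was measured on Affymetrix GeneChip arrays of the rat genome. Each value is a log2 expression value, and 31042 probe sets (groups of short probes that measure 1 transcript) were tested.

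Isoflurane is an inhaled anesthetic that acts in the brain largely through GABA-A receptors and potassium channels. Handling and anesthesia can raise glucocorticoid hormones, which induce genes such as Fkbp5 and Tsc22d3 in leukocytes, hold inflammatory genes down and move lymphocytes and neutrophils between blood and tissue. RNA of whole blood comes from neutrophils, monocytes, lymphocytes, platelets and young red cells, so a change in the share of a cell type changes the level of all its genes. In such bulk samples fewer cells of a type and less RNA per cell cannot be told apart.

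In the main fit, with all rats of both groups at equal weight, few genes differed in blood drawn at 24 hours. There 1 gene, Serpinb11, stood apart from the rest. A probe set is called here where its limma p is at most 0.01 and its fold at least 1.2 in either direction. There were 255 probe sets called, 0.821% of those tested, of which 87 were higher in anesthesia rats (34.1% of the called and 0.28% of all) and 168 were lower (65.9% of the called and 0.541% of all). The p threshold alone was met by 282 probe sets, where 310 would meet it with no difference between the groups. After Benjamini-Hochberg adjustment of the limma p over all probe sets at 0.05, 1 probe set was left (0.00322%), and the next smallest adjusted p was 0.283. With all 42 arrays in the study model 0 probe sets were left, and 1396 had an unadjusted p under 0.05. In the main fit 1517 had an unadjusted p under 0.05, against 1552 with no difference. That count depended on the fit: it was 3428 without anesthesia rat 1 and 3276 with array weights. Leaving out any other single rat gave between 1059 (without anesthesia rat 5) and 1812 (without naive rat 2).

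The size of the called differences was mostly small. Their median size was 0.45 on the log2 scale, and 13 of 255 reached log2 1, 11 higher and 2 lower in anesthesia rats. The anesthesia and naive values did not overlap in 60 probe sets (0.193% of all), 46 of them called. Full separation of 6 from 6 rats has an exact two-sided permutation p of 0.00216. About that share of probe sets would separate with no difference, so 60 is no more than expected. Outside Serpinb11 the widest gap between the groups was 0.25. The count of called probe sets rested on single arrays: it was 971 without anesthesia rat 1 and 144 without anesthesia rat 6. Without anesthesia rat 1 the limma adjusted p was at most 0.05 for 6 probe sets. These were Serpinb11, the histone acetyltransferase gene Ep300 (-0.42), Adnp (-0.43), Kansl2 (-0.34), the transcription factor gene Klf3 (-0.37) and the RNA polymerase subunit gene Polr2e (0.66), the last 5 named after their values were seen. For the 13371 probe sets with a mean of at least log2 4 in either group (bright probe sets), the middle standard error of a difference was 0.18, and the 95% interval lay within a 2-fold change in either direction for 85.7% of them and within a 1.5-fold change for 49.9%.

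**Figure D1:**
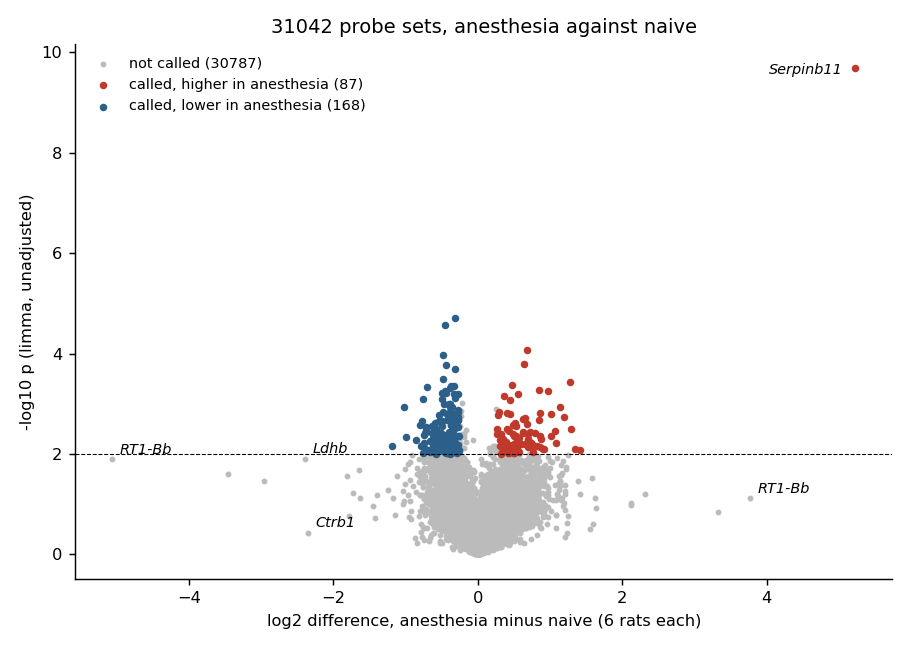
Difference between anesthesia and naive rats (log2, x axis) against -log10 of the unadjusted limma p (y axis) for 31042 probe sets, with called probe sets in colour and a dashed line at the p threshold. Serpinb11 lies alone at a difference of 5.23, while RT1-Bb, Ldhb and Ctrb1 have large differences below the line.

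Serpinb11 belongs to the clade B serpins, a family of intracellular protease inhibitors, and in the mouse it inhibits trypsin-like proteases. Its probe set read 7.29, 8.40, 6.78, 7.98, 7.54 and 8.02 in the anesthesia rats, against 2.69, 2.35, 2.32, 2.58, 2.34 and 2.36 in the naive rats. Every anesthesia rat lay at least 4.09 above every naive rat, and the naive values were near the bottom of the array's range. The means were 7.67 ± 0.59 in anesthesia and 2.44 ± 0.16 in naive rats (SD, n = 6 each), a difference of 5.23 (95% interval 4.71 to 5.75). The limma adjusted p was 6.43e-06 in the fit of these 12 arrays. The interval and this p are scaled to the spread within each group. They do not reflect how rats fall between the separate Serpinb11 levels described below. The exact permutation p of Serpinb11 was 0.00216, the same as for each of the 60 probe sets without overlap between the groups. In the study model of all 42 arrays, where the spread is estimated over every group, the difference was the same but the limma adjusted p of Serpinb11 was 0.98, and over the other alternatives with all 12 rats it lay between 2.76e-08 and 0.016.

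Rats of the other groups were found at both Serpinb11 levels. Over all 42 rats its values fell into separate levels, with 18 rats between 2.29 and 2.69 and 24 rats between 5.90 and 9.89, and none in between. The upper level held all 6 anesthesia rats, 4 of 6 rats given tPA without MCAO, 3 of 6 with reperfused-MCAO, 1 of 6 with reperfused-MCAO and tPA, 5 of 6 with permanent-MCAO, 5 of 6 with permanent-MCAO and tPA, and 0 of 6 naive rats. Of the 30 rats of the other 5 groups, 18 were above every naive rat and 12 were not. The 24 MCAO rats had been under isoflurane for the occlusion, and 14 of them were at the upper level. Whether the Serpinb11 level is related to isoflurane was not tested.

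The array holds 1 probe set for Serpinb11, on chromosome 13 by the gene table used for names. Of 6 probe sets for 5 other clade B serpins on that chromosome, 0 were called. Serpinb10, the 1 bright gene among them, averaged 8.13 ± 0.44 in anesthesia and 8.08 ± 0.63 in naive rats, and Serpinb2, a serpin that inhibits urokinase, averaged 3.65 ± 0.56 in anesthesia and 3.26 ± 0.13 in naive rats. The call of Serpinb11 held in each of the 12 fits that left out 1 rat, with differences between 5.08 and 5.41.

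**Figure D2:**
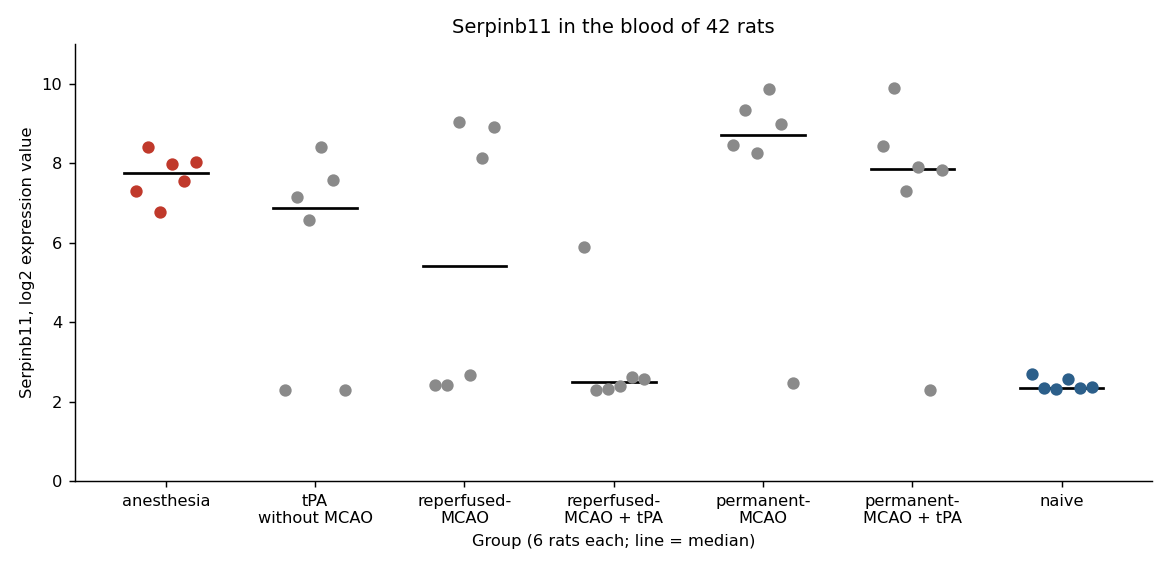
Log2 expression value of Serpinb11 (y axis) in each of 42 rats by group (x axis, 6 rats each), where a point is a rat and a line the group's median. The 6 anesthesia rats lie between 6.78 and 8.40, the 6 naive rats between 2.32 and 2.69, and each of the other 5 groups has rats at both levels.

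Beyond Serpinb11, the highest called genes were of varied function. Abcb4, a phospholipid transporter best known from the bile canaliculus of the liver, ran between 4.53 and 5.86 in anesthesia rats (median 4.78) and between 3.42 and 4.41 in naive rats (median 3.83). The groups did not overlap, the difference was 1.14 (95% interval 0.57 to 1.72, limma adjusted p = 0.94), and the call held in all 12 fits that left out a rat. Its median was between 3.48 and 3.93 in the other 5 groups, which all lay nearer to the naive median.

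Blm, a helicase that resolves recombining DNA, ran between 7.94 and 8.75 in anesthesia rats (median 8.41) and between 6.84 and 7.93 in naive rats (median 7.32). The groups came within 0.02 of each other without overlap, and the difference was 0.98 (95% interval 0.53 to 1.42, adjusted p = 0.875 by limma). The other groups had Blm medians between 6.86 and 7.87.

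Tpm2, a tropomyosin that binds actin filaments, ran between 4.67 and 6.56 in anesthesia rats (median 5.49) and between 3.49 and 5.20 in naive rats (median 4.41), with 5 of 6 anesthesia rats above every naive rat. Bglap, the bone matrix protein osteocalcin, averaged 6.08 ± 0.47 in anesthesia and 5.02 ± 0.57 in naive rats. Snrnp25, a protein of the minor spliceosome, averaged 5.33 ± 0.37 in anesthesia and 4.48 ± 0.25 in naive rats. These 3 genes kept their call whichever rat was left out, with differences of 1.29, 1.07 and 0.85, and so did Map4k5, a kinase upstream of the JNK pathway, at 0.85. In the 42-array model Tpm2, Bglap and Snrnp25 were not called. With the hybridization control level in the fit Bglap and Map4k5 lost the call, and with the 3' minus 5' signal of beta-actin, a sign of RNA length, Tpm2 and Bglap lost it.

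Other genes among the 12 highest were less stable. Letm2, a protein of the inner mitochondrial membrane, was 1.41 higher, but its anesthesia values ran between 3.84 and 5.70 and its naive values between 2.62 and 4.71, and the call held in 4 of 12 fits that left out a rat. Espl1, the separase that frees sister chromatids, was 0.86 higher and held its call in 4 of 12. Cpeb4, a regulator of mRNA translation, and Tom1l3 were 1.01 and 0.88 higher and held it in 7 of 12 each.

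Hbe1, an embryonic globin of early red cells, completes the 12. It ran between 8.34 and 9.49 in anesthesia rats (median 9.19) and between 6.92 and 8.73 in naive rats (median 7.97). Anesthesia rat 1 alone, at 8.34, reached into the naive range. The difference was 1.08 (95% interval 0.38 to 1.79), and the call held in 6 of 12 fits that left out a rat. A probe set assigned to both Oas1g and Oas1i was called as well, with means of 9.76 in anesthesia and 8.41 in naive rats, and since it has several symbols its gene is not resolved.

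The genes that were lowest in anesthesia rats were of varied function too. Cbr4, a carbonyl reductase of mitochondrial fatty acid synthesis, ran between 3.35 and 4.09 in anesthesia rats (median 3.51) and between 3.94 and 5.37 in naive rats (median 4.61). Only anesthesia rat 5 reached into the naive range, and the difference was -1.02 (95% interval -1.54 to -0.51). The values are near the level below which the array separates little.

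Rabggta, the alpha subunit of the enzyme that attaches geranylgeranyl lipids to Rab proteins, ran between 5.25 and 6.14 in anesthesia rats (median 5.89) and between 6.38 and 6.86 in naive rats (median 6.49). The groups did not overlap, and the gap of 0.25 was the widest after Serpinb11. Its difference was -0.77 (95% interval -1.13 to -0.40), and its probe set is of a type whose probes can match several transcripts.

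Kifbp, a protein that binds kinesin motors, had the smallest p of the 12 lowest genes. It averaged 6.03 ± 0.27 in anesthesia and 6.73 ± 0.24 in naive rats, a difference of -0.70 (95% interval -1.01 to -0.39). Hus1, a subunit of the clamp that signals DNA damage, averaged 6.82 ± 0.44 in anesthesia and 7.60 ± 0.24 in naive rats. Atrx, a chromatin remodeler, averaged 5.37 ± 0.36 in anesthesia and 6.00 ± 0.21 in naive rats. In each of the 3, 5 of 6 anesthesia rats lay below every naive rat. Cbr4, Rabggta, Kifbp, Hus1, Atrx and Tbccd1 (-0.74) kept their call in all 12 fits that left out a rat. In the 42-array model Rabggta, Hus1, Atrx and Tbccd1 were not called, and Hus1 and Atrx also lost the call with the hybridization control level in the fit and Atrx and Tbccd1 with the beta-actin signal.

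Of the 6 remaining lowest genes, Stxbp5, a syntaxin binding protein of vesicle release, was 0.75 lower and called in 10 of 12 such fits, and Lrrc8b, a subunit of volume-regulated anion channels, was 1.00 lower and called in 8. Cul2, a scaffold of ubiquitin ligases, was called in 5, Id1, an inhibitor of helix-loop-helix transcription factors, in 3, and Marcks, a substrate of protein kinase C, and Dst, a linker of the cytoskeleton, in 2 each. Their differences lay between -0.76 and -0.64. No gene of either direction other than Serpinb11 passed adjustment over all probe sets.

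**Figure D3:**
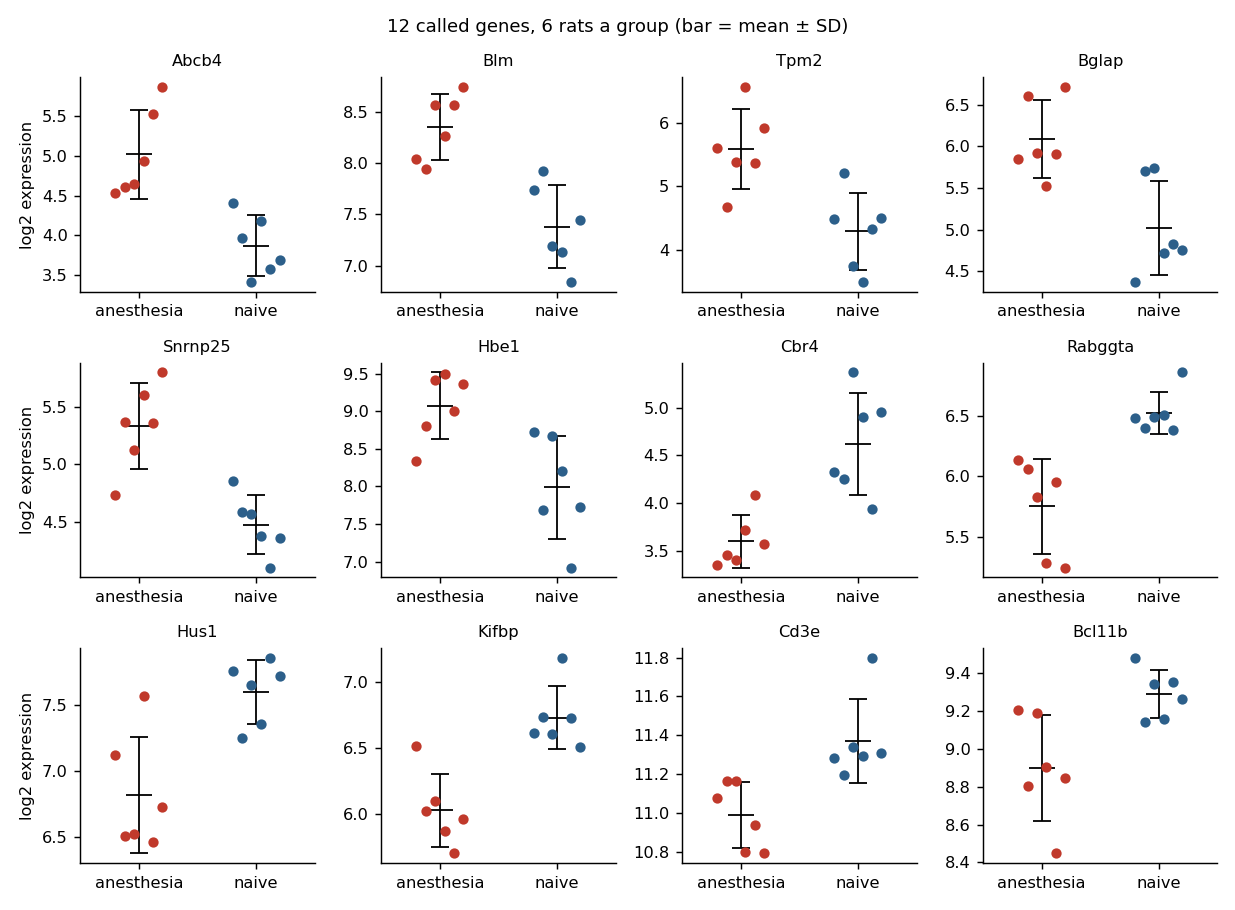
Log2 expression values (y axis, its range set per gene) of 12 called genes in 6 anesthesia rats and 6 naive rats, where a point is a rat and the bar the mean ± SD. Abcb4, Blm, Rabggta and Cd3e have no overlap between the groups, and in the other 8 panels at least 1 rat reaches into the range of the other group.

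The blood cell lists that follow hold textbook marker genes, each gene standing with its brightest probe set. Of all 14217 genes measured in this way 51 were called higher (0.359%) and 93 lower (0.654%) in anesthesia rats, and 44.9% had a positive difference, 35.0% of the bright ones. T cell genes were mostly lower. Of 24 measured T cell genes 2 were called, both lower, 21 were negative, and the median difference was -0.26, against -0.01 over all genes and -0.09 over bright genes. Of the 24 genes 9 had an unadjusted limma p under 0.05, and all 9 were negative. Over all 31042 probe sets 1517 had such a p, in either direction.

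Cd3e, which codes for the CD3 epsilon chain, read 11.08, 11.16, 11.17, 10.80, 10.94 and 10.79 in anesthesia rats, against 11.28, 11.19, 11.34, 11.29, 11.80 and 11.31 in naive rats. The anesthesia rats were all lower, by as little as 0.03, and the difference was -0.38 (95% interval -0.62 to -0.14). The call held in 9 of 12 fits that left out a rat and was lost without anesthesia rats 4, 5 or 6 and in the 42-array model. The other Cd3e probe set differed by -0.37 and was not called. Bcl11b, a transcription factor of T cell identity, averaged 8.90 ± 0.28 in anesthesia and 9.29 ± 0.13 in naive rats and was called. Its call held in 5 of 12 fits that left out a rat and in 5 of 10 other settings, and was lost in the 42-array model. The next brightest Bcl11b probe set averaged 7.83 ± 0.54 in anesthesia and 7.80 ± 0.59 in naive rats.

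Other CD3 chains and further T cell genes had negative differences that were not called: -0.33 for Cd3g, -0.26 for Cd3d, -0.45 for Cd8b, a coreceptor chain, -0.43 for Tcf7 and -0.33 for Lef1, the last 2 being transcription factors of resting T cells. Averaged over the list, the level of the 24 genes ran between 8.09 and 8.53 in anesthesia rats and between 8.45 and 8.83 in naive rats, so the groups overlapped. The count of T cell genes called lower ran between 0 and 7 when single rats were left out, with 7 without anesthesia rat 1 and 0 without anesthesia rat 6. It was 0 when the hybridization control level or the 3' minus 5' signal of beta-actin was added to the fit, with medians of -0.19 under both.

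Neutrophil genes were also mostly negative, but none was called. Of 19 measured genes 17 were negative with a median of -0.31, which ran between -0.44 and -0.18 when single rats were left out, the last without anesthesia rat 6. S100a8 and S100a9, the calcium binding alarmins of neutrophils, averaged 13.2 ± 0.37 and 12.2 ± 0.33 in anesthesia rats, against 13.6 ± 0.28 and 12.6 ± 0.37 in naive rats. The 95% intervals of their differences, -0.77 to 0.03 and -0.83 to 0.02, both held 0. Csf3r had the smallest p of the list and averaged 8.74 ± 0.41 in anesthesia and 9.44 ± 0.63 in naive rats. Its difference was -0.70 (95% interval -1.35 to -0.05, limma adjusted p = 0.94). It was the 1 gene of the list with an unadjusted limma p under 0.05. The list's mean level ran between 7.05 and 8.42 in anesthesia rats and between 7.58 and 8.55 in naive rats, and the spread between rats of 1 group was larger than the difference between the groups.

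Monocyte and B cell genes leaned the same way by less. Of 21 monocyte genes 17 were negative (median -0.15, or -0.10 without naive rat 6) and 0 were called. Lyz2, the lysozyme of myeloid cells, had the smallest p of the list and averaged 14.1 ± 0.11 in anesthesia and 14.3 ± 0.09 in naive rats, a difference of -0.21 that is under the fold threshold. Of 14 B cell genes 13 were negative (median -0.15) and 0 were called. The median ran between -0.32 without anesthesia rat 1 and -0.06 without naive rat 5, was -0.26 without naive rat 3 and lay between -0.09 and -0.08 without anesthesia rats 5 or 6 or naive rat 4. All 14 were positive when the hybridization control level was added to the fit, and Fcer2, the low affinity IgE receptor, had an interval of -1.15 to 0.31.

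Platelet and red cell genes ran the other way. Of 20 platelet genes 18 were positive, with a median of 0.38, and 0 were called. An unadjusted limma p under 0.05 was found for 6 of the 20, all 6 positive, against 1517 of all 31042 probe sets in either direction. Nrgn, a calmodulin binding protein abundant in platelets, had the smallest p and averaged 10.2 ± 0.30 in anesthesia and 9.68 ± 0.32 in naive rats, with 3 of 6 anesthesia rats above every naive rat. Pf4, a chemokine of platelet granules, differed by 0.19 (95% interval -0.11 to 0.49). The mean level of the list ran between 9.22 and 9.88 in anesthesia rats and between 8.99 and 9.59 in naive rats, and the median of its differences stayed between 0.30 and 0.45 when single rats were left out. With the hybridization control level in the fit all 20 were positive with a median of 0.30.

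Of 34 red cell and reticulocyte genes 32 were positive (median 0.21) and Hbe1 alone was called. Alas2, the first enzyme of heme synthesis in red cells, was at the top of the array's range in both groups, 14.59 ± 0.02 in anesthesia and 14.55 ± 0.07 in naive rats. The list's mean level ran between 10.6 and 11.4 in anesthesia rats and between 10.1 and 11.2 in naive rats. Its median was -0.02 with the hybridization control level and 0.03 with the beta-actin signal in the fit, and 0.10, 0.13 and 0.13 without naive rat 5, anesthesia rat 4 or anesthesia rat 6.

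NK and cytotoxic cell genes were evenly placed, with 12 of 21 positive, a median of 0.08 and 0 called. The median was 0.01 without anesthesia rat 1, 0.02 without naive rat 6, 0.05 without anesthesia rat 2 and 0.12 without naive rat 3. Gzma, a granule protease of these cells, averaged 9.41 ± 0.44 in anesthesia and 9.22 ± 0.49 in naive rats. The genes of basophils, mast cells and eosinophils were 8 positive and 8 negative. Hdc, which makes histamine, and Mcpt8, a basophil protease, varied widely between rats of 1 group (SD 0.96 in anesthesia and 0.83 in naive rats for Hdc, 1.05 in anesthesia and 0.78 in naive rats for Mcpt8).

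**Figure D4:**
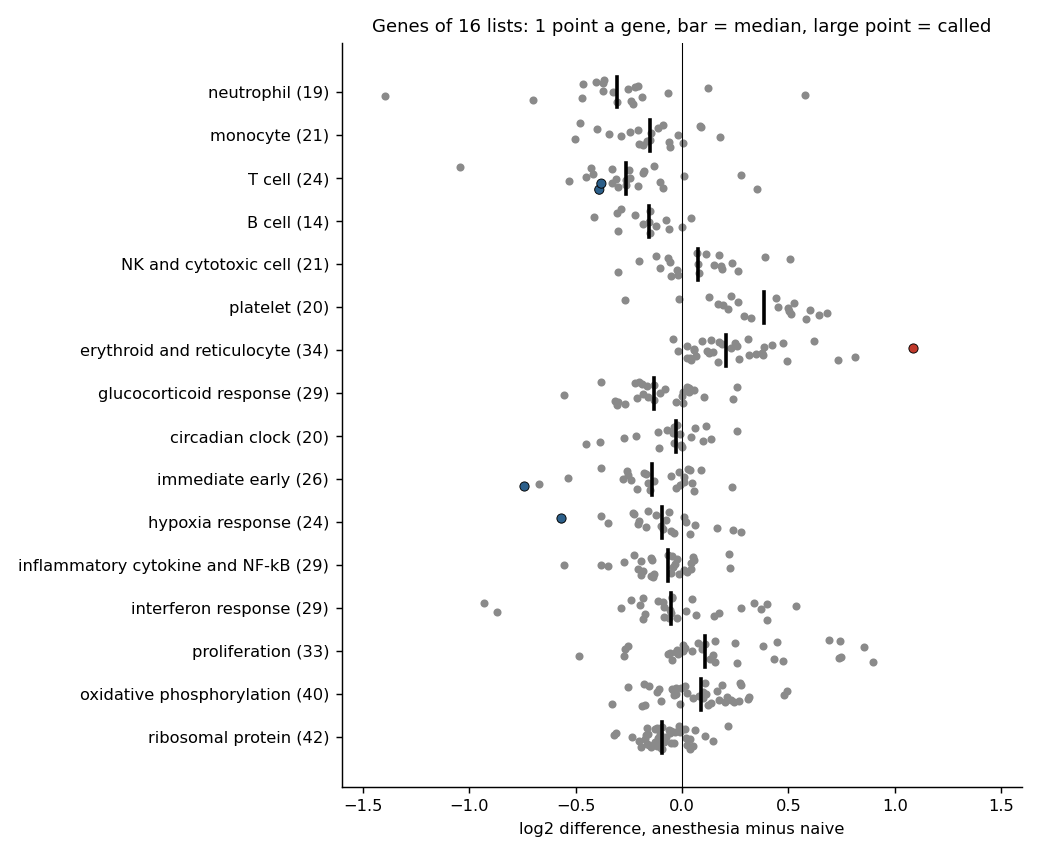
Difference between anesthesia and naive rats (log2, x axis) for each measured gene of 16 lists (y axis, number of genes in brackets), where a small point is a gene that was not called, a large point a called gene and a bar the list's median. The median is lowest for neutrophil genes (-0.31) and highest for platelet genes (0.38), and 5 list entries are called.

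Genes that glucocorticoids induce did not separate the groups at 24 hours. Of 29 measured genes 0 were called and 19 were negative. Their median of -0.13 ran between -0.19 without anesthesia rat 1 and -0.04 without naive rat 6 or anesthesia rat 5, and was -0.06 without anesthesia rat 6. Fkbp5, a cochaperone of the glucocorticoid receptor, read between 6.62 and 7.14 in anesthesia rats (median 6.84) and between 6.38 and 7.24 in naive rats (median 6.76), so the anesthesia range lay inside the naive range. Its difference was 0.10 with a 95% interval of -0.24 to 0.44. For Tsc22d3, the glucocorticoid-induced leucine zipper protein, the interval was -0.77 to 0.33, for Sgk1, a kinase, -0.46 to 0.20, and for Dusp1, a phosphatase of MAP kinases, -1.03 to 0.61. Of the 24 bright genes of the list, 21 had an interval within a 2-fold change, and Zfp36, which destabilises cytokine mRNA, had the smallest p at a difference of -0.38.

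Clock genes, which follow the time of day, did not separate them either. Of 20 measured clock genes 10 were bright and 0 were called. Per1, a repressor of the clock that stress hormones also induce, read between 3.65 and 4.86 in anesthesia rats and between 3.91 and 4.14 in naive rats, so the anesthesia rats lay on both sides of the naive ones. Dbp, an output of the clock, differed by -0.27 (95% interval -0.68 to 0.14), Per2 by -0.07 (-0.57 to 0.42) and Nr1d2 by -0.11 (-0.48 to 0.25). Nr1d1, Per3 and Bmal1 were dim in both groups.

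Immediate early genes, which rise within an hour of many stimuli, had 1 of 26 called. Egr2, a zinc finger transcription factor, ran between 2.64 and 4.15 in anesthesia rats (median 3.12) and between 3.80 and 4.24 in naive rats (median 3.97). The difference was -0.74 (95% interval -1.23 to -0.26) at a dim level, and the call held in 4 of 12 fits that left out a rat. Among 24 hypoxia genes 1 was called: P4ha1, a subunit of the enzyme that hydroxylates collagen, averaged 4.89 ± 0.34 in anesthesia and 5.46 ± 0.30 in naive rats and held its call in 4 of 12.

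No gene was called in the lists of inflammatory cytokines (29 measured), Toll-like receptors (15), interferon response (29), heat shock (21), antioxidant response (24), ER stress (25), BCL2 family and caspases (25), proliferation (33), fatty acid oxidation (25), oxidative phosphorylation (40), ribosomal proteins (42) and the proteasome (30). For the 40 bright oxidative phosphorylation genes all 40 intervals lay within a 2-fold change, and for the 40 bright ribosomal protein genes 39 did. The 20 bright inflammatory cytokine genes had 19 such intervals. The share was lowest for proliferation (14 of 25 bright genes), then interferon response (19 of 27) and Toll-like receptors (11 of 14). Where an interval reached further, the lack of a call does not exclude a 2-fold change. Of the 33 proliferation genes 23 were positive, with a median of 0.11. Ly96, the coreceptor of Toll-like receptor 4, had the smallest p of the Toll-like receptor list and averaged 8.19 ± 0.17 in anesthesia and 8.51 ± 0.21 in naive rats.

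The channels on which inhaled anesthetics act were dim in blood. Of 21 measured genes for GABA-A, glycine and NMDA receptor subunits and for potassium and other channels 0 were bright. Of 14 cardiac muscle genes, which a puncture of the heart could bring into the sample, 0 were bright, and none had a mean above 2.57 in anesthesia or 2.55 in naive rats. The 10 hepatocyte genes also had 0 bright. Skeletal muscle had 3 of 12 bright and endothelium 4 of 12, with 0 called in either list, among them Myl11, a myosin light chain that averaged 5.11 ± 0.39 in anesthesia and 4.80 ± 0.14 in naive rats, and Icam2, an adhesion molecule that averaged 9.40 ± 0.32 in anesthesia and 9.79 ± 0.38 in naive rats. Markers of whole blood were at high levels in both groups, as given above for Alas2, Pf4, S100a8, Cd3e and Lyz2.

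The largest differences after Serpinb11 were not called, and in each of them the rats of at least 1 group were widely spread. These probe sets were picked after their values were seen. Of 11 bright probe sets that differed by at least log2 2, 1 was called, and the other 10 had an SD of at least log2 1 in 1 or both groups. They include both probe sets of RT1-Bb, the beta chain of a class II molecule of the rat major histocompatibility complex, whose genes are highly polymorphic between rats.

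The brighter RT1-Bb probe set (A) read 12.02, 11.12, 10.12, 11.001, 9.97 and 10.72 in anesthesia rats, against 2.48, 2.12, 3.23, 11.75, 11.51 and 11.19 in naive rats. Naive rats 1, 2 and 3 lay far below all others, and naive rats 4, 5 and 6 were as high as the anesthesia rats. The other RT1-Bb probe set (B) read 2.87, 2.87, 10.31, 2.93, 2.97 and 3.40 in anesthesia rats, against 11.21, 11.35, 10.001, 3.26, 11.47 and 8.44 in naive rats. Its high rats were anesthesia rat 3 and all naive rats but naive rat 4, so the 2 probe sets of RT1-Bb differed in opposite directions, by 3.78 and -5.06. Neither was called. In the class II list, which holds probe set A, 8 of 10 genes were negative with a median of -0.23 (-0.10 without naive rat 5, and -0.15 without naive rat 4 or anesthesia rat 5).

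Ldhb, the heart-type subunit of lactate dehydrogenase, read 5.53, 8.51, 8.52, 4.00, 8.18 and 5.23 in anesthesia rats, against 8.46, 8.40, 9.57, 9.59, 8.97 and 9.33 in naive rats. Anesthesia rats 1, 4 and 6 were low. Anesthesia rats 2 and 3 lay inside the naive range near its bottom, and anesthesia rat 5 lay just below it. The difference was -2.39 with an interval of -4.16 to -0.63, and the probe set was not called. Ldha, the muscle-type subunit, averaged 10.88 ± 0.14 in anesthesia and 10.96 ± 0.12 in naive rats.

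Ctrb1, a digestive protease of the pancreas, was at 11.76 and 11.47 in anesthesia rats 5 and 6 and between 2.27 and 2.54 in the other 4, against values between 9.06 and 11.41 in naive rats 3 to 6 and 2.30 and 2.37 in naive rats 1 and 2. Both levels occurred in both groups.

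**Figure D5:**
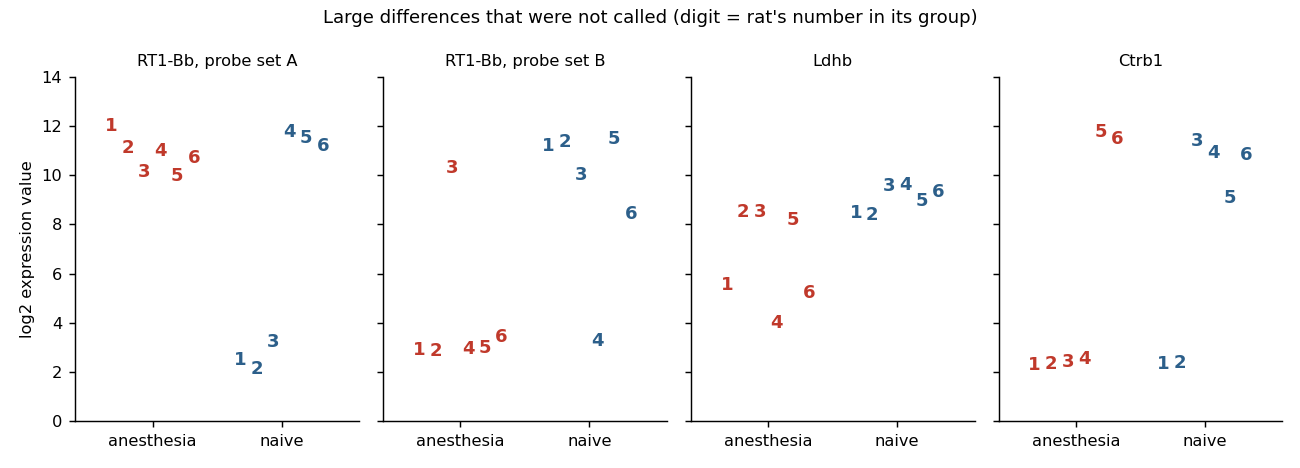
Log2 expression values (y axis) of RT1-Bb (probe sets A and B), Ldhb and Ctrb1 in anesthesia and naive rats, where each digit is the rat's number in its group. The 2 RT1-Bb probe sets have rats near 2 to 3 and rats near 8 to 12, and Ldhb is low in anesthesia rats 1, 4 and 6.

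Technical levels of the 12 arrays moved with the groups by less than the tests could separate. The hybridization controls, bacterial transcripts added before hybridization, averaged 12.22 ± 0.22 in anesthesia and 11.98 ± 0.24 in naive rats, a difference of 0.25 (exact two-sided permutation p = 0.0909, adjusted over 4 measures 0.277). The 3' minus 5' signal of beta-actin, which grows as RNA is shorter, averaged 3.40 ± 0.44 in anesthesia and 3.73 ± 0.24 in naive rats (exact p = 0.139). Anesthesia rat 1 had the lowest hybridization control level of its group, 11.79, and the highest beta-actin value, 4.10, and anesthesia rat 1 and naive rat 5 correlated least with the other arrays of their groups (medians of 0.943 and 0.945). The part of these levels in the T cell, platelet and red cell differences was not tested beyond the fits given beside them.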

How the data were processed

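Array scans were summarised by the authors with GC-RMA in Partek, per the labels and the study's methods, and deposited as 1 log2 value for each probe set and rat. The scans were not used here. The 57 control probe sets were set aside. Symbols came from the platform annotation of the probe sets, updated with a RefSeq gene table of the GRCr8 assembly that served for names and chromosome: 20826 tested probe sets had 1 symbol, 436 several and 9780 none. No sequence was needed.

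The 6 anesthesia and 6 naive arrays were fitted alone with lmFit and eBayes in limma 3.58.1 (R 4.3.3), after tests on simulated data. Adjusted p values are Benjamini-Hochberg over 31042 probe sets. Intervals are 95%. Exact tests ran over all divisions of the 12 rats. The gene lists, members and thresholds were chosen with earlier results of these data known. Named were the 12 highest and 12 lowest called genes at log2 4 or more, the called genes of each list (3 with the smallest p, or 1 gene where none was called), fixed stress, clock and blood cell genes, and called genes with a gap of at least log2 0.5. Probe sets with large uncalled differences were added after values were seen. With 6 rats a group, limma p values set the group difference against the spread between rats of a group. Exact p values rank the difference among the divisions of the rats. No scan or hybridization batch was given in the sources used here. Alternatives covered the model, test, array weights, scaling, dim probe sets, thresholds, covariates and single rats. Array number, not read depth, limits precision. Figures were drawn with Python 3.11.15 and matplotlib 3.10.9.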

Additional observations from a re-analysis of the deposited data

Results flagged for a closer look

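In 154 groups of 6 values checked for a rat far from the other 5, 15 had one, where chance gives about 1 in 20. Among called genes these were Letm2 in anesthesia rat 2 (3.84, low), Marcks in anesthesia rat 5 (7.10, low), Rabggta in naive rat 6 (6.86, high), Kifbp in naive rat 4 (7.18, high) and Cd3e in naive rat 5 (11.8, high). Among genes that were not called, Cflar was low in anesthesia rat 5 (3.87) and high in naive rat 5 (4.83), Ifi44 was high in naive rat 2 (7.29) and Gzma was low in naive rat 6 (8.28). Dim genes gave the rest: Per3 in anesthesia rat 3 (2.65), Nr1d1 in anesthesia rat 1 (2.29) and naive rat 4 (2.39), Bmal1 in anesthesia rat 1 (3.47) and naive rat 1 (3.68), and Mybpc3 in naive rat 5 (2.68), all high. The hybridization control level was low in anesthesia rat 1 (11.8).

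Serpinb11 was above its highest naive value in 18 of the 30 rats of the 5 groups that the comparison does not use.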

How the results depend on the processing

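Against 255 called probe sets, 726 were called with array weights and 168 of 13136 without dim probe sets. There were 74 at a fold of at least 1.5 and 1208 at p at most 0.05. With the hybridization control level as a covariate 143 were called, of which 63 were among the 255. The beta-actin 3' minus 5' signal as a covariate (an alternative chosen after seeing the data) gave 159, of which 74 were among the 255. In these 2 fits 54.5% and 55.3% of the called were higher in anesthesia rats, against 34.1% in the main fit. Leaving out single rats gave 144 to 971 called and 1 to 6 after adjustment. With all 42 arrays in the study model 186 were called, of which 69 were among the 255, and 0 passed adjustment (1396 at an unadjusted p under 0.05), while the methods' test and every other alternative left 1. In that model the limma adjusted p of Serpinb11 was 0.98, against at most 0.016 in the other alternatives with all rats. The other settings kept the count within 1.5 times. Of 28 called named genes 13 were called in all 12 fits without a rat and 5 in those and all other settings (Serpinb11, Abcb4, Blm, Cbr4 and Kifbp), and 0 changed sign. The hybridization control difference stayed positive, between 0.16 and 0.33 with single rats left out, with an exact p of 0.013 without anesthesia rat 1 and 0.0411 without naive rat 3. Same-numbered rats did not deviate together (r between -0.25 and -0.04 for 6 pairs), so their numbers do not pair them: the fit with the replicate block called 259 probe sets, 141 of them among the 255, and 1 after adjustment. Values near log2 2 to 3 have little information on fold changes.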
